A study of Mus musculus with 4 samples.

Results

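The FoxO transcription factors Foxo1, Foxo3 and Foxo4 were examined with 6 genes that respond to FoxO, to glucose or to growth factor withdrawal, namely Ccng2, Fbxo32, Bcl6, Txnip, Arrdc3 and Arrdc4. These 9 genes were taken from the 20065 genes of the deposited expression table, and all 9 were among the 16212 genes that passed the filter on low counts. Ccng2 and Txnip had been chosen by their higher values in the mutant cells of this same comparison, and the others were added for their known connection to both. The fold changes of the members between the groups are therefore given as a description, with standard errors and no test.

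Muscle stem cells (MuSC, or satellite cells) from limb and trunk muscles of adult C57BL/6 mice were grown in culture and profiled by RNA sequencing. Prmt5, the gene removed, encodes an arginine methyltransferase that dimethylates arginine symmetrically. The labels give the genotype of the 2 control (Ctrl) samples as wild type. The study's figure legends define its controls as carrying Pax7CreERT2 and 1 floxed Prmt5 allele over a wild-type allele (Pax7CreERT2/Prmt5+/loxP). The 2 Prmt5sKO samples are labelled PRMT5 KO, and the legends define these mice by Pax7CreERT2 and floxed alleles on both chromosomes (Pax7CreERT2/Prmt5loxP/loxP). By the study's methods, both groups were treated in culture with hydroxytamoxifen for some days and analysed several days later, and the labels name only tamoxifen without a route. By the legends and methods the recombinase and its inducer were shared by both groups. The wild-type label of Ctrl does not say whether these samples carried the recombinase. The recombinase is expressed from the Pax7 locus, which limits deletion to cells with Pax7 activity. The labels and methods do not say whether the 2 samples of a group came from different animals or cultures, and p-values measure only the spread between these samples. In each group 1 library held Xist, the RNA of the inactive X chromosome, and the other was nearly without it (values beside Foxo4), so the cells of the 2 samples differed in this respect.

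FoxO factors sit in the nucleus and activate their targets when insulin and growth factor signalling is low. Akt phosphorylates them when signalling is high, and they are then held in the cytoplasm. Their best known targets in muscle restrain growth or the cell cycle and promote protein breakdown. Txnip and its relatives Arrdc3 and Arrdc4 are alpha-arrestins, which link membrane proteins such as glucose transporters and receptors to ubiquitin ligases. Txnip and Arrdc4 are classical targets of the glucose-sensing Mondo-Mlx factors, which bind carbohydrate response elements.

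The sequences upstream of these genes were read first. The RefSeq promoter table (GRCm38.p6) held 10 windows for 7 of the 9 genes, and Foxo4 and Fbxo32 had none. The 250 bases before each RefSeq start were searched on both strands for GTAAACA, a FoxO element, for 2 copies of CACGNG 5 bases apart, a form of the carbohydrate response element, and for the E-box CACGTG. The letters CAAAACA, known from insulin-responsive promoters, and CCAAT were added after the windows had been read. The 3 stretches that follow are written 5′ to 3′ on the strand of the gene, with matches to these letters in capitals. They are shown because Txnip is the only member with the FoxO and carbohydrate letters, Arrdc4 is its nearest relative in expression among the members, and Ccng2 is the other gene that defined the set.
Txnip, plus strand, chr3:96557707-96557956: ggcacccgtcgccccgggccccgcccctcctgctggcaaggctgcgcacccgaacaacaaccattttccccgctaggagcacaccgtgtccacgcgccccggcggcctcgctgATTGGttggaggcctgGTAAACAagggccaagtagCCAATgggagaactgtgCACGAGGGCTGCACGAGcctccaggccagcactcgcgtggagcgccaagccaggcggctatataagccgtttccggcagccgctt
Arrdc4, minus strand, chr7:68749242-68749488: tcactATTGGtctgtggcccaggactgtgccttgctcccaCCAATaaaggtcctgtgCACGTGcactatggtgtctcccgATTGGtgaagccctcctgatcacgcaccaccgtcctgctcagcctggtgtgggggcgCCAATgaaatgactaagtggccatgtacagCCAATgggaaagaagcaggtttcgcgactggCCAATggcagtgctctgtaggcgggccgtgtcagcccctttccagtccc
Ccng2, plus strand, chr5:93267549-93267572: cgcagactCAAAACAaaaacaagg

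In the Txnip sequence the FoxO letters GTAAACA began 121 bases before the RefSeq start. The carbohydrate response letters, CACGAG on either side of GGCTG, began 85 bases before it, and CCAAT lay on each strand between and before them. The FoxO letters occurred in 1040 of 32851 RefSeq windows (3.17%), and the paired CACGNG letters in 15 windows (0.0457%). With 1 mismatch allowed in the FoxO letters, the count among the members stayed at 1 window, while 42.4% of all windows held such a match. In the Arrdc4 sequence CACGTG began 193 bases before the start, and CCAAT or its reverse complement ATTGG occurred 6 times. CACGTG was present in 6.02% of all windows and also in a Bcl6 window, 60 bases before the start. CCAAT was present in 33.8% of all windows and in windows of Foxo1, Txnip, Arrdc3 and Arrdc4. The Ccng2 stretch held CAAAACA, 16 bases before its RefSeq start and inside the longer span that GENCODE gives the gene, and 5.56% of all windows held these letters. A match is a description of the letters, and no factor binding was measured in these samples.

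The deposited values were group means, from which whole read counts of each of the 4 libraries were recovered. Libraries are told apart within a group by their depth, with totals between 13240754 and 20047430 counts, and wherever a pair of values is given for a group, that of the deeper library comes first. Values are given as normalized counts, scaled between libraries by trimmed mean of M-values (TMM). Prmt5 itself had 2273 and 2906 normalized counts in Ctrl, and 244 and 202 in Prmt5sKO. Progenitor markers were present in all libraries, with Pax7 between 2570 and 3664 normalized counts and Myod1 between 12153 and 15548. They were not all level between the groups. Myf5 was lower in both Prmt5sKO libraries (1630 and 1772 in Ctrl against 1305 and 1252). Vcam1 was higher in both (1605 and 1405 against 1737 and 1883). Des, Cdh15 and Itga7 overlapped between the groups, and in Prmt5sKO each was higher in the shallower library, as for Cdh15 with 1467 and 4639. The shallower Prmt5sKO library stood apart. Its 12 markers of differentiating muscle summed to 250879 normalized counts, against 18406 in the deeper Prmt5sKO library and 12503 and 8011 in Ctrl. Of these 12 markers, 9 were above both Ctrl libraries in both Prmt5sKO libraries, beside 25.2% of all genes tested. Endothelial markers summed to 124 and 163 normalized counts in Ctrl and 90.4 and 56.3 in Prmt5sKO. Haematopoietic markers summed to 112 and 119 against 71.1 and 75.4, so both sums were low and lower in both Prmt5sKO libraries. Single markers differed. Pecam1, Kdr and Cdh5 were lower in both Prmt5sKO libraries, but Tek was higher, at 13.6 and 27.2 against 43.0 and 29.2. Cd68 was lower and made up most of the haematopoietic sums. Itgam (4.52 and 0 against 3.70 and 22.1) and Cd79a overlapped, and Ptprc and Cd3e were not among the deposited genes. Fibro-adipogenic markers summed to 124 and 386 in Ctrl and 210 and 502 in Prmt5sKO, where the groups overlapped. Schwann cell markers summed to between 25.9 and 41.8, with Sox10 between 0 and 3.39. Pericyte and smooth muscle markers summed to 3174 and 1779 in Ctrl and 4839 and 6168 in Prmt5sKO, led by Rgs5 and Cspg4. Rgs5, Cspg4 and Pdgfrb were higher in both Prmt5sKO libraries, and Myh11 lay between 6.67 and 10.2. Rgs5 differed widely between the Ctrl libraries, at 1774 and 128 against 2367 and 4163 in Prmt5sKO. Pdgfrb had 45.2 and 98.6 against 176 and 405. In bulk RNA a smaller number of cells of a type and less RNA per cell cannot be told apart. The part of these differences in the values of the 9 genes was not tested, and the counts over the members and of genes called are therefore also given without the shallower or the deeper Prmt5sKO library.

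The question asked of the members is how each FoxO factor, FoxO-responsive gene and alpha-arrestin stood in cells lacking Prmt5. Of the 9 genes, 7 had both Prmt5sKO libraries above both Ctrl libraries, and 0 had both below. Over all genes tested, 25.2% separated upward in this way and 23.6% downward. Without the shallower Prmt5sKO library the same 7 genes had the remaining library above both Ctrl libraries (38.9% of all genes tested). Without the deeper one the count was 9 (39.7% of all genes tested). A log2 fold change of at least 1 was found for 6 of the 9 genes and for 12.8% of all genes. Over the 9 genes the median of the log2 fold changes was 1.20, and over all genes it was 0.02. Since the set was chosen on this contrast, nothing is read from these counts. No gene of the 16212 reached both limits in limma-voom (0 genes, 0.0%). The limits were a Benjamini-Hochberg adjusted p no higher than 0.05 and a change of 2-fold or more. The lowest adjusted p was 0.193, that of Prmt5 itself, with a log2 fold change of -3.52 ± 0.27. Even the removed gene was thus not called, and 0 genes called does not mean that no gene differed. By its methods the study applied the same limits with DESeq2, and it reported up- and downregulated genes. The count of 0 belongs to the test used here. This count rested on both Prmt5sKO libraries, since it was 496 without the deeper and 99 without the shallower one, with the lone library assumed to vary like the others. Before adjustment, with p under 0.05, 975 genes were higher (6.01%) and 1126 lower (6.95%) in Prmt5sKO. Scaling by library size alone moved the median of all genes up by 0.11 on the log2 scale. It also moved this split to 1364 higher and 764 lower. An upward shift keeps positive log2 fold changes positive, so it does not test the sign of those of the members. That of Foxo4 was -0.0042 with the authors' size factors and -0.0095 with upper-quartile factors, and those of the other members stayed positive. With all libraries limma-trend gave 1266 higher and 1147 lower. Limma-voom gave 1857 higher and 1120 lower without the deeper Prmt5sKO library and 1457 and 1178 without the shallower one, so which direction held more genes depended on the scaling, the test and the libraries.

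**Figure D1:**
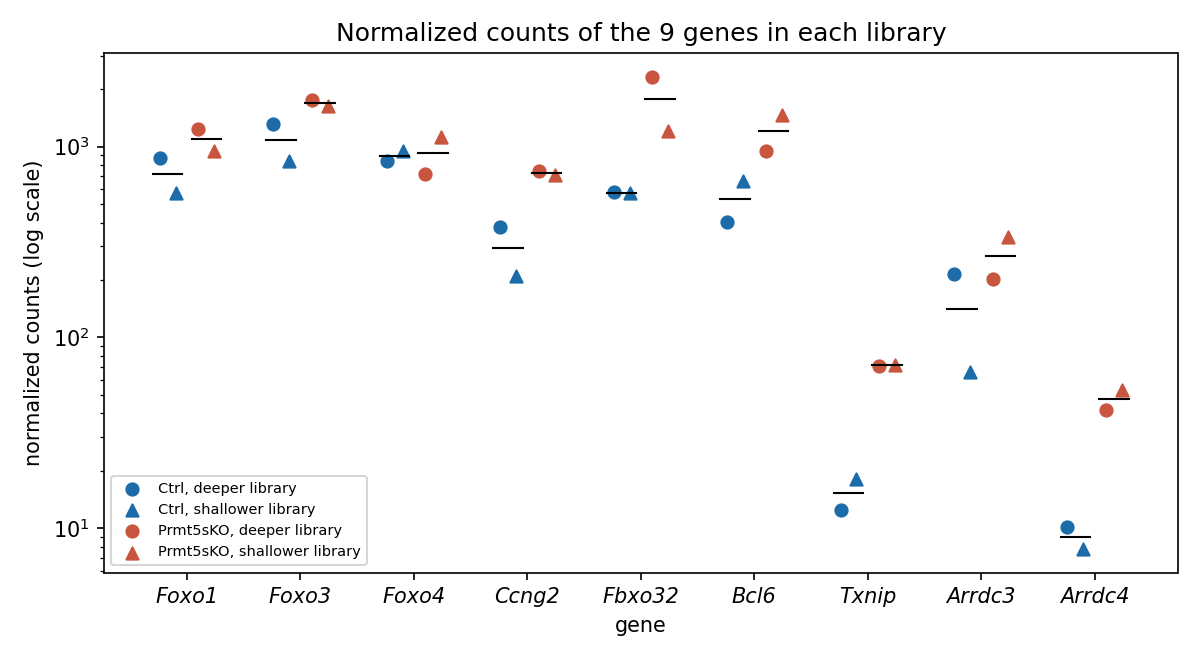
Normalized counts (vertical axis, log scale) of the 9 genes in each of the 4 libraries. Blue is Ctrl, red is Prmt5sKO, circles are the deeper and triangles the shallower library of a group, and black bars are means of the 2 libraries. The red points lie above the blue points for 7 genes and overlap them for Foxo4 and Arrdc3.

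Among the FoxO factors themselves, Foxo1 and Foxo3 were higher in both Prmt5sKO libraries, whereas Foxo4 had about the same mean in both groups. Foxo1 (ENSMUSG00000044167, chromosome 3, 52268336 to 52353221, plus strand, GRCm38), which in muscle and liver drives genes of fasting metabolism, had 868 and 569 normalized counts in Ctrl and 1240 and 948 in Prmt5sKO. The groups did not overlap, but the lowest Prmt5sKO value was only 1.09 times the highest Ctrl value. The log2 fold change of Foxo1 was 0.62 ± 0.29 (SE, 2 libraries per group), and 21.1% of the genes tested had a larger one.

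Foxo3 (ENSMUSG00000048756, chromosome 10, 42181841 to 42276755, minus strand), a driver of autophagy and atrophy genes in muscle, had 1315 and 846 normalized counts in Ctrl and 1757 and 1628 in Prmt5sKO. Both Prmt5sKO libraries were above both Ctrl libraries, and they lay closer to each other (1.08-fold) than the Ctrl libraries did (1.56-fold). Its log2 fold change was 0.68 ± 0.27. Without the shallower Ctrl library the log2 fold changes were smallest, at 0.32 for Foxo1 and 0.36 for Foxo3. They were largest without the deeper Ctrl library, at 0.93 and 1.00.

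Foxo4 (ENSMUSG00000042903, chromosome X, 101254528 to 101260873, plus strand), the X-linked family member, had 837 and 951 normalized counts in Ctrl and 720 and 1122 in Prmt5sKO. The Prmt5sKO values lay on either side of the Ctrl values, so the groups overlapped. The log2 fold change was 0.0031 ± 0.28, and its sign changed under 4 of 12 other settings. Xist had 8668 and 5655 normalized counts in the deeper Ctrl and shallower Prmt5sKO libraries and 23.3 and 8.15 in the shallower Ctrl and deeper Prmt5sKO libraries, so the libraries with and without Xist were split evenly over the groups. Foxo6, the remaining family member, was close to the detection limit, with recovered reads of 2 and 3 in Ctrl and 8 and 49 in Prmt5sKO. It was named after its values had been seen.

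Ccng2, Fbxo32 and Bcl6, all described as FoxO targets, were each higher in both Prmt5sKO libraries by a factor between 2.28 and 3.08 in mean normalized counts. Ccng2 (ENSMUSG00000029385, chromosome 5, 93267257 to 93276231, plus strand) encodes cyclin G2, an unconventional cyclin associated with cell cycle arrest. It had 380 and 210 normalized counts in Ctrl and 744 and 707 in Prmt5sKO. The groups did not overlap, and the Prmt5sKO libraries were nearly equal. For Ccng2 the log2 fold change was 1.34 ± 0.32, and it ran from 0.93 without the shallower Ctrl library to 1.79 without the deeper one.

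Fbxo32 (ENSMUSG00000022358, chromosome 15, 58175879 to 58214932, minus strand) encodes atrogin-1, the muscle ubiquitin ligase subunit of atrophy. It had 577 and 569 normalized counts in Ctrl, and 2328 and 1210 in Prmt5sKO. The Ctrl libraries were nearly identical, and the higher Prmt5sKO value was in the library with the lower differentiation markers. Fbxo32 had a log2 fold change of 1.55 ± 0.36, which became 1.08 without the deeper and 2.02 without the shallower Prmt5sKO library.

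Bcl6 (ENSMUSG00000022508, chromosome 16, 23965052 to 23988852, minus strand) encodes a zinc finger repressor that recruits corepressors. It had 401 and 661 normalized counts in Ctrl and 947 and 1473 in Prmt5sKO. Here the shallower library was the higher one in each group, the reverse of Fbxo32 in Prmt5sKO, and the groups did not overlap. Bcl6 had a log2 fold change of 1.20 ± 0.35, between 0.83 and 1.55 when each library was left out in turn.

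The alpha-arrestins held the 2 largest differences of the set, on the lowest counts. Txnip (ENSMUSG00000038393, chromosome 3, 96557957 to 96561883, plus strand) encodes the thioredoxin-interacting protein, which restrains glucose uptake. It had 12.4 and 18.2 normalized counts in Ctrl and 71.1 and 71.4 in Prmt5sKO. These values rest on 11 and 14 recovered reads in Ctrl and 96 and 71 in Prmt5sKO. The groups were far apart, with the lowest Prmt5sKO value at 3.92 times the highest Ctrl value. Txnip had a log2 fold change of 2.21 ± 0.63, between 1.93 and 2.46 when each library was left out in turn, and 3.39% of the genes tested had a larger one.

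Arrdc4 (ENSMUSG00000042659, chromosome 7, 68736995 to 68749241, minus strand), which like Txnip lowers glucose uptake, had 10.2 and 7.78 normalized counts in Ctrl and 41.5 and 53.3 in Prmt5sKO. The recovered reads were 9 and 6 in Ctrl and 56 and 53 in Prmt5sKO, again with no overlap. Its log2 fold change of 2.29 ± 0.75 was the largest of the set. Arrdc3 (ENSMUSG00000074794, chromosome 13, 80883384 to 80896042, plus strand), known for its role in receptor turnover and adiposity, had 215 and 66.1 normalized counts in Ctrl and 202 and 335 in Prmt5sKO. The deeper Ctrl library lay above the deeper Prmt5sKO library, so the groups overlapped. Arrdc3 had a log2 fold change of 1.04 ± 0.59, which depended on the Ctrl library used, at 0.25 without the shallower and 1.94 without the deeper one. With scaling by library size alone its groups no longer overlapped.

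**Figure D2:**
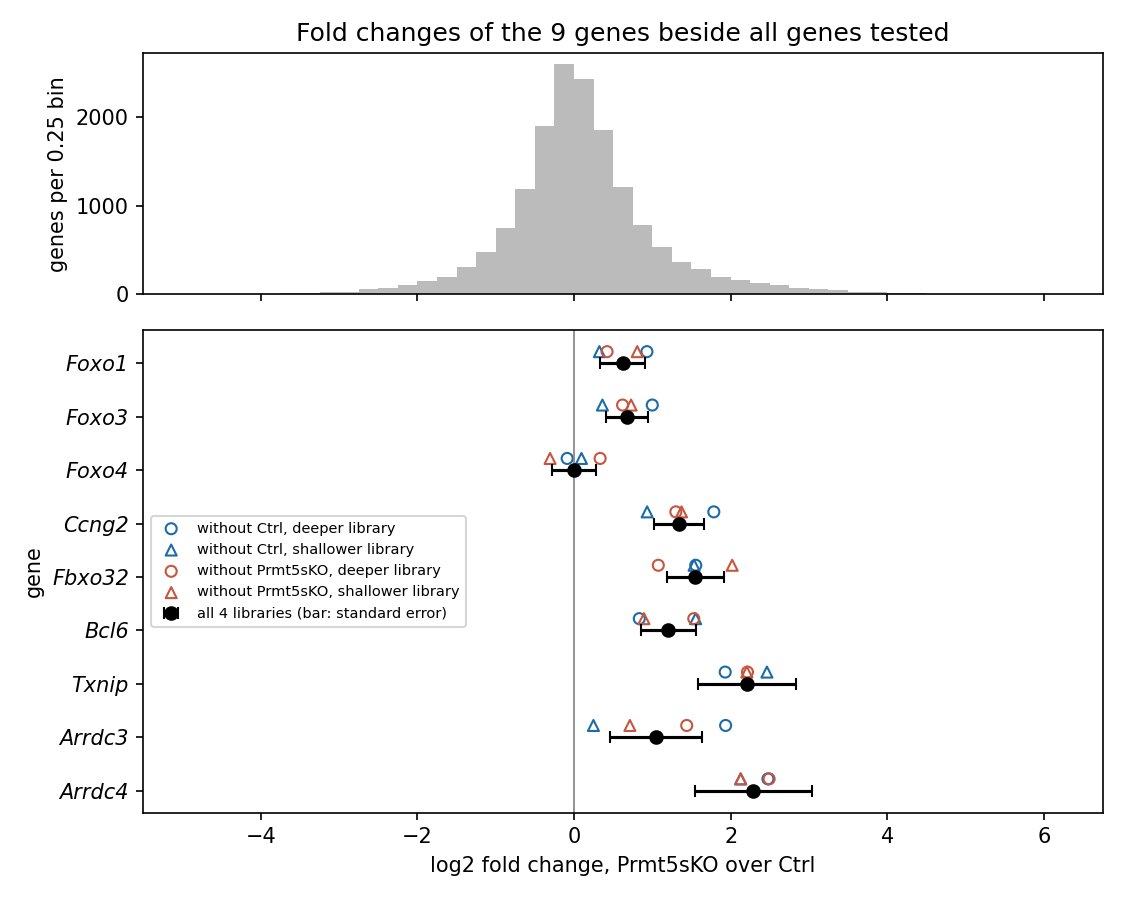
Log2 fold change, Prmt5sKO over Ctrl (horizontal axis), as the number of genes per bin for all 16212 genes tested (top) and for each of the 9 genes (bottom). Black points with bars are the fit on 4 libraries with its standard error, and open symbols are fits with 1 library left out. Foxo4 lies at 0, Txnip and Arrdc4 lie above 2, and Arrdc3 has the widest range of open symbols, from 0.25 to 1.94.

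Levels of the genes were compared per length, as normalized counts per 1000000 counts and per kilobase of exon, with the SD over 2 libraries. In Ctrl cells Foxo4 was highest at 15.9 ± 1.42, followed by Foxo3 at 8.85 ± 2.72 and Foxo1 at 5.14 ± 1.51. The library values of these neighbouring factors did not overlap. Fbxo32 at 5.09 ± 0.051 and Bcl6 at 4.91 ± 1.70 could not be separated from Foxo1 or from each other, and the range of Ccng2 at 3.35 ± 1.36 overlapped that of Bcl6. Arrdc3 at 1.39 ± 1.04, Txnip at 0.304 ± 0.080 and Arrdc4 at 0.138 ± 0.026 followed without overlap. In Prmt5sKO cells Foxo4 at 16.4 ± 5.06, Fbxo32 at 15.7 ± 7.02, Foxo3 at 13.9 ± 0.75 and Bcl6 at 11.2 ± 3.44 formed an order in which neighbours overlapped. Below them, Ccng2 at 8.24 ± 0.30 and Foxo1 at 7.83 ± 1.47 overlapped as well, and Arrdc3 at 2.66 ± 0.93, Txnip at 1.41 ± 0.0039 and Arrdc4 at 0.727 ± 0.13 remained the lowest. Bcl6 moved most with the length used, to 8.37 in Ctrl and 19.1 in Prmt5sKO with the longest transcript, which put it first in Prmt5sKO.

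Annotated exons of other genes shared bases with 4 members. Antisense genes shared 674 of 8665 exon bases of Foxo1, 606 of 3123 of Txnip and 186 of 6976 of Fbxo32, and a gene on the opposite strand shared 21 of 6700 with Bcl6. Whether the counting used strand is not given in the sources used here, so reads from these stretches cannot be assigned to 1 strand.

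The difference between the libraries of a group was compared for the members and the 12 differentiating-muscle markers. As log2 of shallower over deeper library, with 1 added to each normalized count, the markers lay between 2.4 and 6.46 in Prmt5sKO. The members lay between -0.94 (Fbxo32) and 0.72 (Arrdc3) there, and none reached the range of the markers. In Ctrl the members lay between -1.68 (Arrdc3) and 0.72 (Bcl6) and the markers between -2.96 and -0.11.

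**Figure D3:**
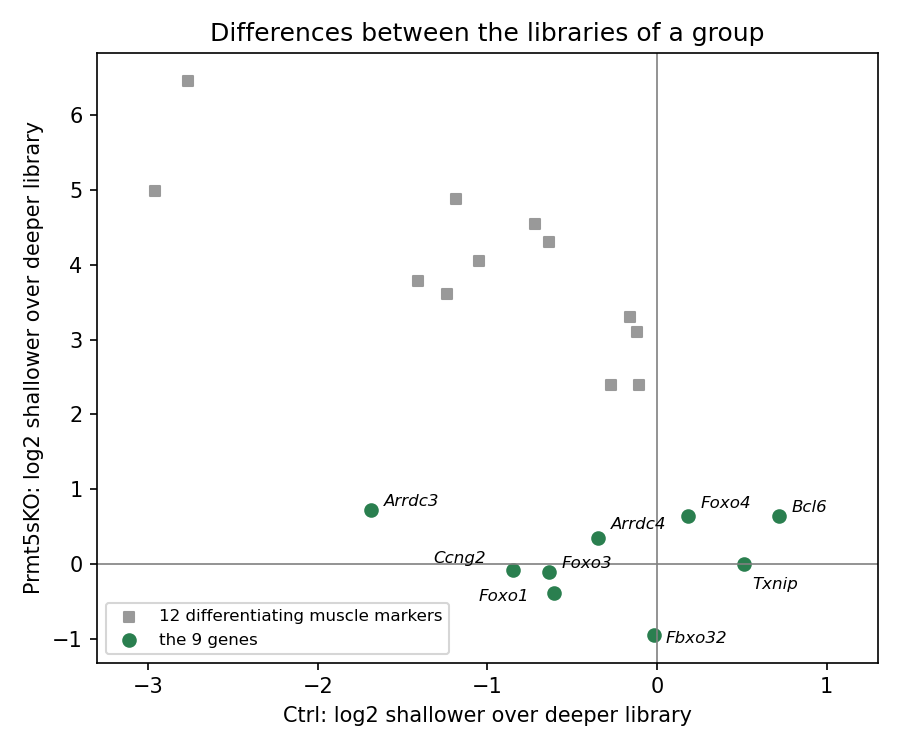
Log2 of shallower over deeper library in Ctrl (horizontal axis) and in Prmt5sKO (vertical axis), with 1 added to each normalized count, for the 9 genes (green circles) and 12 markers of differentiating muscle (grey squares). All squares lie above 2.3 on the vertical axis and all green circles lie between -0.94 and 0.72.

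The neighbours of the 9 genes in their pathways were examined in 7 lists of textbook membership, from which the 9 genes were left out. Of 115 genes listed, 106 were in the table and 104 were tested, and 9 belonged to more than 1 list. None of the 104 was called by limma-voom (0 genes, beside 0.0% of all genes tested). At an unadjusted p under 0.05, 9 were higher and 11 lower in Prmt5sKO (6.01% and 6.95% of all genes). Both Prmt5sKO libraries lay above both Ctrl libraries for 22 of them and below for 24, beside 25.2% and 23.6% of all genes, and the median log2 fold change was -0.02. With scaling by library size alone the counts were 31 above and 18 below. That scaling also moved the median log2 fold change of all genes up by 0.11, and the shares over all genes were not computed under it.

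Among 30 other FoxO targets, 11 were above and 3 below Ctrl in both libraries (25.2% and 23.6% of all genes), and their median was 0.16 on the log2 scale. At an unadjusted p under 0.05, 5 were higher and 2 lower (6.01% and 6.95% of all genes). The list was not divided by whether FoxO raises or lowers a target, so no direction of FoxO activity is read from these counts. Cited2, a transcriptional co-regulator that FoxO induces, was lower, at 997 and 923 normalized counts in Ctrl and 492 and 415 in Prmt5sKO. Pik3ip1, an inhibitor of phosphatidylinositol 3-kinase, had 46.3 and 10.4 in Ctrl and 132 and 113 in Prmt5sKO. Rbl2, the pocket protein p130 of quiescent cells, had 319 and 254 against 581 and 470. The groups did not overlap for any of these 3 genes, and Cited2 differed in the direction opposite to Ccng2. Trim63, the other classical atrophy ligase (MuRF1), was named after its values had been seen. It had 18.1 and 11.7 normalized counts in Ctrl and 54.1 and 314 in Prmt5sKO, and the highest value was in the library with high differentiation markers.

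The list of regulators of FoxO in the insulin and Akt pathway held 31 genes, of which 5 were above and 8 below Ctrl. Over all genes 25.2% were above and 23.6% below, beside this and each list that follows. The median of the list was -0.16 on the log2 scale. It included Foxo6, itself a FoxO factor, among the 5 above, on the few reads given earlier. Skp2, a ubiquitin ligase subunit that targets Foxo1, had 1154 and 1797 normalized counts in Ctrl and 622 and 640 in Prmt5sKO. Usp7, which removes ubiquitin from FoxO, had 3099 and 3856 against 2236 and 2195. Pik3r3, a regulatory subunit of phosphatidylinositol 3-kinase, had 457 and 237 against 752 and 1138. Skp2 and Usp7 were lower and Pik3r3 higher without overlap, and their adjusted p in limma-voom lay between 0.252 and 0.325.

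The 15 genes of Mondo-Mlx glucose sensing and the thioredoxin system included 5 with a positive log2 fold change. Of the 15, 3 were above and 6 below Ctrl, and the median log2 fold change was -0.20. Fasn, the fatty acid synthase, had 12504 and 14978 normalized counts in Ctrl and 6290 and 5691 in Prmt5sKO. Txn1, the thioredoxin that Txnip binds, had 3058 and 2710 against 1694 and 1923. Txnrd1, the reductase that recycles it, had 6189 and 8768 against 4463 and 3280. All 3 were lower in both Prmt5sKO libraries, opposite to Txnip, with adjusted p between 0.214 and 0.30 in limma-voom. The 3 genes above Ctrl were Mlx, Mlxipl and Ddit4, named after their values had been seen. Mlx had 407 and 718 normalized counts in Ctrl and 868 and 859 in Prmt5sKO. Ddit4 had 427 and 207 against 565 and 702. Mlxipl rested on few recovered reads, 5 and 0 in Ctrl and 23 and 11 in Prmt5sKO. Mlxip overlapped between the groups.

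The remaining lists were smaller. Of 9 other alpha-arrestins and Nedd4-type ubiquitin ligases, their partners, 0 were above and 2 below Ctrl, and log2 fold changes ran only from -0.19 to 0.42. The 2 genes below Ctrl were Itch and Wwp2, and the change of Nedd4l was 0.29. Of 12 atrophy ligases and autophagy genes, 4 were above and 3 below. Map1lc3b, the autophagosome protein LC3B, had 836 and 507 normalized counts in Ctrl and 1620 and 1016 in Prmt5sKO. Atg12, an autophagy conjugation protein, had a log2 fold change of 0.76, against -0.69 for Eif4ebp1, a repressor of translation initiation.

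Of 9 corepressors and targets of Bcl6, 1 was above and 3 were below Ctrl. Socs2, a suppressor of cytokine signalling, was the 1 above, with a log2 fold change of 0.62, and Hdac3, a histone deacetylase, had one of -0.31. Of 7 genes of cyclin G and its phosphatase partners, 2 were above and 1 below. Ccng1, the paralog of Ccng2 and a p53 target, had 5607 and 2386 normalized counts in Ctrl and 10197 and 12174 in Prmt5sKO. Ccng1 thus differed by a log2 fold change of 1.61 ± 0.42, beside 1.34 ± 0.32 for Ccng2. Those of Ppp2ca and Ppp2r5c, subunits of protein phosphatase 2A, were 0.30 and 0.37.

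**Figure D4:**
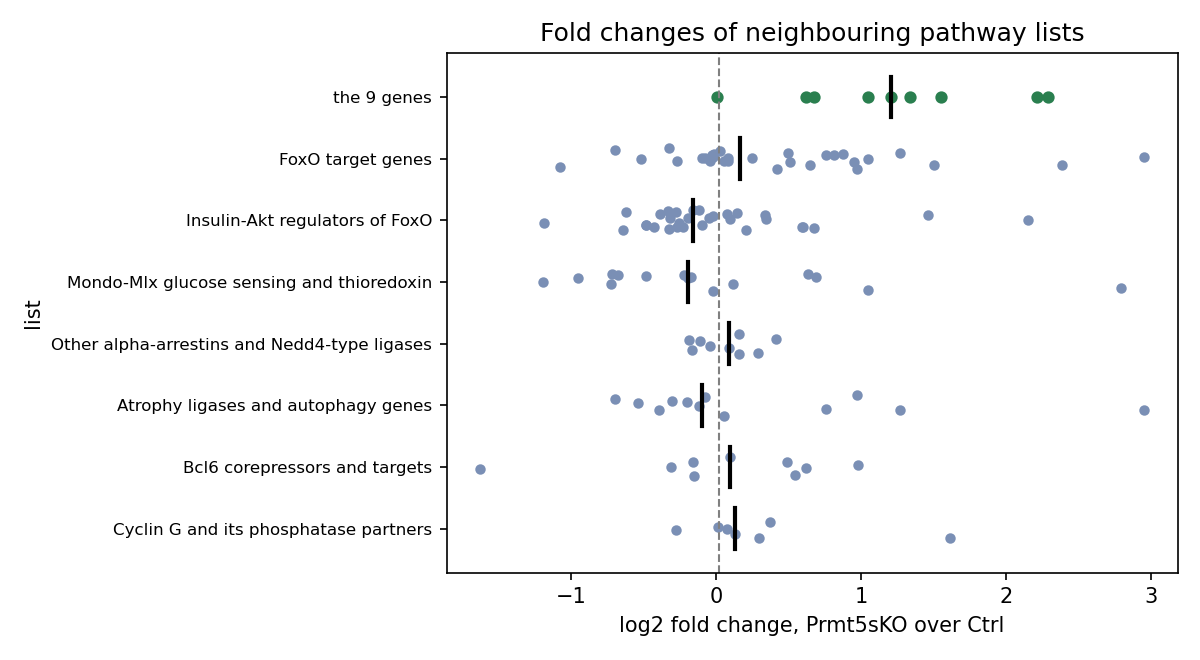
Log2 fold change, Prmt5sKO over Ctrl (horizontal axis), of the tested genes in 7 pathway lists (blue points) and of the 9 genes (green points). Black bars are medians and the dashed line is the median of all genes tested, 0.02. The medians of the lists lie between -0.20 and 0.16, and that of the 9 genes, which were chosen on this contrast, is 1.20.

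The genes with profiles most like Ccng2 and Txnip were found by Euclidean distance over the 4 libraries between log2 normalized values centred on the mean of each gene. The nearest to Ccng2 were Mgst1 (distance 0.097), Fbxw9 (0.12) and Nnmt (0.13). The nearest to Txnip were Espn (0.13), Rnf207 (0.17) and the small RNA gene Gm25897 (0.23). Among the members Foxo3 was nearest to Ccng2 (0.69), with 608 other genes nearer, and Arrdc4 was nearest to Txnip (0.66), with 56 other genes nearer. With 4 libraries these distances describe the profiles and nothing more.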

How the data were processed

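RNA of 4 libraries was depleted of ribosomal RNA and sequenced on an Ion Torrent instrument. The authors trimmed the reads, aligned them with STAR 2.4.0a to GRCm38, counted them per Ensembl gene and normalized the counts with DESeq2, as the submitters' processing notes and the study's methods state. The deposited signal values used here are the authors' group means of size-factor-normalized counts. The other deposited columns, an overall mean and the authors' fold change, its standard error and p-values, were not used.

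A group mean adds up whole reads of 2 libraries, each read weighing a fixed amount in its library, and whole counts were recovered for 100% of the genes, with a largest relative residual of 5.8e-15. The columns carry no replicate numbers. The values thus differed from the counts the design first assumed, and limma-voom (limma 3.58.1, R 4.3.3) was used with TMM factors computed here (trimming 30% of log ratios and 5% of intensities), a minimum mean normalized count of 5, and calls at a Benjamini-Hochberg adjusted p no higher than 0.05 with a change of 2-fold or more. The scripts were tested on simulated data. For limma-voom these had the same spread in every library and no library that stood apart, so its behaviour on data like these was not simulated. Symbols came from GENCODE M21 for 19782 of 20065 identifiers. Precision is limited by 2 libraries per group and by counting error where reads are few.

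The members and lists were chosen with earlier results of these data known. All 9 members were named, with the 3 genes of smallest unadjusted p of each list, Prmt5, and the 3 genes nearest to Ccng2 and to Txnip, except 1 list gene that is not reported here. Alternatives were other scalings, filters, limma-trend, replicate blocks and leaving out each library.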

Additional observations from a re-analysis of the deposited data

How the results depend on the processing

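The count of genes called was 0 under the authors' size factors, upper-quartile factors, library size alone, no filter, a minimum mean of 20, limma-trend and the replicate block that paired the deeper libraries. The crossed replicate block, which paired unlike depths across the groups and libraries alike in Xist, called 346 genes, 5 of them in the pathway lists. The columns carry no replicate numbers, so neither pairing comes from the labels, and the deviations correlated across 11487 genes at -0.29 with the deeper libraries paired and at 0.29 crossed. Leaving out 1 library gave 0 to 496 genes called and 0 to 6 genes of the pathway lists. The count was 496 without the deeper Prmt5sKO library, 99 without the shallower Prmt5sKO library, and 0 without either Ctrl library. In these fits the lone library is assumed to vary like the others. The cause was not tested. The log2 fold changes of the members moved by more than the spread between libraries in 4 of 108 refits. All of these left out 1 library, for Foxo3, Ccng2, Txnip and Fbxo32. Leaving out 1 of 2 libraries can shift a group mean by little more than this spread, so the count does not show that the members are stable. Arrdc3 ran from 0.25 to 1.94 over the refits and was not counted as moved. The edgeR and DESeq2 fits were planned only for columns that give whole reads in single steps, which means over 2 libraries do not, and what they would call on the recovered counts was not examined. Txnip and Arrdc4 in Ctrl rest on 14 reads or fewer per library, which limits the precision of their fold changes.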
